A study of Mus musculus with 12 samples.

Results

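ECs of lungs at week 2 after intravenous injection of breast cancer cells were compared with ECs of healthy lungs (control), which were 6 of the 12 arrays of the series. The members were chosen by the time point in the labels, 3 arrays at week 2 and 3 control arrays, and the remaining 6 arrays hold ECs of weeks 1 and 3. All 4 groups came from female NSG mice, an immunodeficient strain that lacks T, B and NK cells. The mice with metastases had received MDA231-LM2 cells, a derivative of the human breast cancer line MDA-MB-231 with high metastatic activity in the lung, by the tail vein at 6 to 8 weeks of age, and the control mice were healthy mice of matched age. ECs were sorted from whole digested lung as CD31+ cells negative for GFP (which marked the cancer cells), for the leukocyte proteins CD45 and CD11b, for EpCAM and for CD140a and CD140b. Each sample is therefore a mixture of ECs from all parts of the lung, near to and far from metastatic nodules. The labels call the samples biological replicates and do not say whether each came from 1 mouse, so the p-values measure the spread between these samples. RNA was hybridized to Affymetrix Mouse Genome 430 v.2.0 arrays, and each value is a log2 signal of 1 probe set, in which a difference of 1 is a doubling of signal. Of 45037 probe sets tested, 34945 carry a single gene symbol and gave 18193 genes, each taken from its brightest probe set over the 12 arrays.

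The arrays of the comparison were alike in quality, with correlations between 0.981 and 0.983 within a group and between 0.974 and 0.981 across the groups. Values ran from 5.27 to 13.99 with a median of 8.13 on every array, as the normalization gives the arrays 1 distribution. As a sign of RNA integrity, the 3′ control probe set of Gapdh exceeded the 5′ one by 0.52 ± 0.16 in control and 0.35 ± 0.05 at week 2 on the log2 scale (SD, n = 3; exact permutation test, two-sided, p = 0.2, where the smallest possible is 0.1). Pecam1, which encodes the CD31 of the sort, had log2 signals of 13.40, 13.46 and 13.50 in control and 13.50, 13.43 and 13.47 at week 2. Of 24 pan-endothelial markers, 0 passed the limma test at week 2 and 2 were higher at an unadjusted p below 0.05 (5.27% of all genes), with mean levels between 12.68 and 12.71 in control and between 12.74 and 12.77 at week 2. The arrays also held transcripts of cells that the sort excludes.

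Lung ECs line the alveolar capillaries and the larger vessels and are among the first host cells that circulating cancer cells meet. Like most cells, they answer interferons: type I and type III interferons switch on genes through transcription factor complexes that bind the interferon-stimulated response element. The products of these genes block viral replication, sense foreign nucleic acids, present antigen and attract lymphocytes. Fibroblasts and mural cells (pericytes and smooth muscle cells) lie directly under the vessel wall, make collagens, proteoglycans and contractile proteins, and are a common companion of ECs in digests of the lung.

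The core of the interferon-stimulated response element (GAAANNGAAA on either strand) was looked for in the promoters of genes that rose or fell at week 2, from 250 bases before to 50 bases after the start site in RefSeq on GRCm38.p6. It lay in the promoters of 7 of the 15 risen genes with a sequence (46.7%, Wilson 95% interval from 24.8% to 69.9%), which were Rsad2, Cxcl10, Ifit1, Ifit1bl1, Ifit3, Oas1a and Inhbb, and in those of 0 of 17 fallen genes (upper bound 18.4%). Among all 14536 genes of the arrays with a promoter sequence it was found in 530, or 3.65%. Windows of 6 of the 7 are printed because they belong to the antiviral, chemokine and activin genes that the comparison turns on, and 1 further window shows the only match of the CArG box, the element read by serum response factor in contractile genes, among the fallen genes. Sequences run 5′ to 3′ along the gene, with the motif in capitals (as its reverse complement where it lies on the opposite strand).
Rsad2, chr12:26456528-26456607, minus strand: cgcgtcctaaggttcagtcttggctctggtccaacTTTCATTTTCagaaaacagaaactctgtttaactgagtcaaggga
Cxcl10, chr5:92349058-92349137, minus strand: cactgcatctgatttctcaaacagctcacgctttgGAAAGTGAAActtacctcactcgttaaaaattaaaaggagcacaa
Ifit1, chr19:34640750-34640829, plus strand: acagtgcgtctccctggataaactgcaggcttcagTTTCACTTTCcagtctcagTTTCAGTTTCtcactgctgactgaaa
Ifit3, chr19:34583338-34583417, plus strand: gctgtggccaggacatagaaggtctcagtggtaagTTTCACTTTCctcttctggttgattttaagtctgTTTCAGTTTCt
Oas1a, chr5:120907526-120907580, minus strand: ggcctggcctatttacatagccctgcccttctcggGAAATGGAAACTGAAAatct
Inhbb, chr1:119422402-119422481, minus strand: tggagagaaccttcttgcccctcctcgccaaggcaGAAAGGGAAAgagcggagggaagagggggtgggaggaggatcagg
Myl9, chr2:156775268-156775347, plus strand: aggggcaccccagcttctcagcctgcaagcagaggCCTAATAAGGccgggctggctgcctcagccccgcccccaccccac
Ifit1 and Ifit3 each hold the core 2 times, and the 2 matches in Oas1a overlap. The CArG box was found in 1 of 17 fallen genes (5.88%), 0 of 15 risen genes and 230 of the 14536 genes (1.58%), so its share among fallen genes rests on a single match. A match is a run of letters and not a measured binding site.

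At week 2, the sorted samples had higher levels of antiviral and interferon-induced genes and of the activin subunit gene Inhbb, and lower levels of 25 genes, among them collagen, proteoglycan and smooth muscle actin genes. Markers of cells that the sort excludes moved with the fallen genes, with 23 of 25 fibroblast markers and 12 of 21 mural markers lower at an unadjusted p below 0.05 (5.19% of all genes). Of the 18193 genes, 19 rose (0.104% of those tested) and 25 fell (0.137%) at an adjusted p below 0.05 (limma, Benjamini–Hochberg correction over all probe sets tested), and the smallest change among them was 0.78 on the log2 scale. Genes were grouped by 39 lists of programs and cell types written from general knowledge. Of the 19 risen genes, 13 are on the lists of interferon-stimulated genes or of the interferon gamma response, and of the 25 fallen genes, 7 are on the fibroblast or mural lists. The control and week 2 arrays did not overlap in any of the 44 genes. Every week 2 array was higher in 10.5% of all genes and lower in 7.15%. The 44 were chosen on these same arrays, so their lack of overlap is a description and adds no support. The median log2 fold change of all genes was 0.03, and the median standard error (SE) of a fold change was 0.13. The count of 44 was 26 without week 2 replicate 2 and 0 when any single other array was left out. Each of the 44 kept its direction and an unadjusted p below 0.05 in all 6 of these fits. The fits reuse arrays on which the 44 were chosen, so this adds no support.

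**Figure D1:**
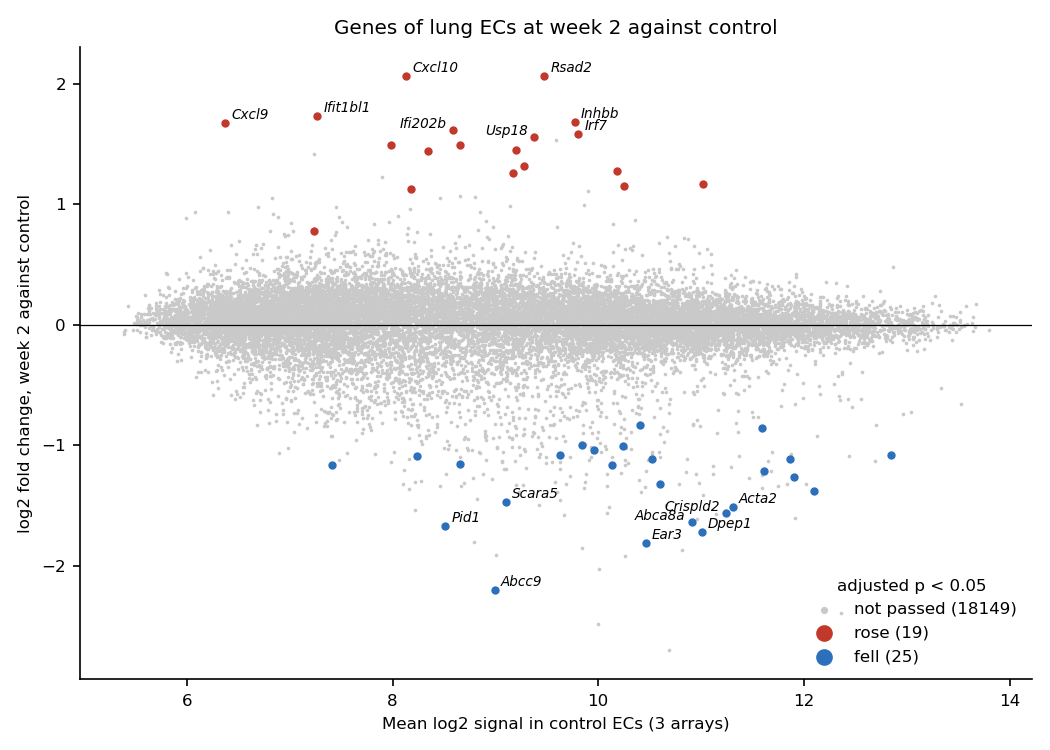
The log2 fold change of each of 18193 genes at week 2 against control (vertical axis) by its mean log2 signal in control ECs (horizontal axis), with 19 genes that rose in red, 25 that fell in blue and 18149 that did not pass in gray. Named points are the 8 genes with the largest absolute fold change in each direction, and called genes are found from dim to bright signals.

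Of the 19 risen genes, 6 encode effectors that act on viral RNA or nucleotides. Rsad2, which encodes viperin, an enzyme that makes a chain-terminating nucleotide, had log2 signals of 9.51, 9.75 and 9.18 in control and 11.60, 11.51 and 11.53 at week 2. The week 2 arrays lay within 0.1 of each other and far above the highest control array, a 4.20-fold rise. Its 2 further probe sets rose as well, by log2 fold changes of 2.13 and 2.36. Cmpk2, a mitochondrial nucleotide kinase gene, had signals of 10.29, 10.19 and 10.26 in control and 11.40, 11.38 and 11.42 at week 2, with the tightest week 2 values of the risen genes (log2 fold change 1.15, SE 0.09, adjusted p = 0.0207). The IFIT proteins bind viral RNA, and 4 of their genes rose. Ifit1 went from 10.10, 10.18 and 10.26 to 11.37, 11.50 and 11.51 (log2 fold change 1.28, SE 0.10, adjusted p = 0.0207), and Ifit2 and Ifit3 had log2 fold changes of 1.32 and 1.17. Ifit1bl1, a relative of Ifit1, was dim in control, at 7.47, 6.97 and 7.36, and reached 8.90, 9.40 and 8.70 at week 2 (log2 fold change 1.74, SE 0.21, adjusted p = 0.0460). Its week 2 arrays were the most spread of the IFIT genes but all lay above control.

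Genes of sensors and regulators of the interferon response were also among the 19. Oas1a and Oas2 encode oligoadenylate synthetases, which detect double-stranded RNA and activate RNase L. Oas2 had signals of 8.67, 8.40 and 8.89 in control and 10.23, 10.11 and 10.12 at week 2 (log2 fold change 1.50, SE 0.14, adjusted p = 0.0234), and Oas1a had a log2 fold change of 1.46. Zbp1, a sensor of Z-form nucleic acids that can trigger necroptosis, moved from 7.99, 7.93 and 8.04 to 9.43, 9.60 and 9.39, a 2.81-fold rise with little spread in either group, while a second probe set of it had a log2 fold change of 0.92 and did not pass (adjusted p = 0.109). Ifi202b encodes a DNA-binding protein of the interferon-inducible p200 family and had signals of 8.92, 8.35 and 8.48 in control and 10.13, 10.37 and 10.12 at week 2 (log2 fold change 1.62, SE 0.17, adjusted p = 0.0303). Its probe set can also detect near-identical relatives, and a probe set shared with another locus rose too, with a log2 fold change of 1.88. Irf7, the transcription factor that amplifies type I interferon production, went from 9.81, 9.64 and 9.97 to 11.34, 11.35 and 11.49 (log2 fold change 1.59, SE 0.12, adjusted p = 0.0207). Usp18, the protease that removes ISG15 and dampens the type I interferon receptor, rose 2.95-fold, from 9.23, 9.50 and 9.40 to 11.13, 10.67 and 11.02. Both an amplifier and a brake of the pathway were thus higher in every week 2 array. Ifi27l2a, a small interferon-induced gene, and Slfn2, a Schlafen family gene known for keeping T cells quiescent, had log2 fold changes of 1.44 and 1.26.

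Of 46 measured interferon-stimulated genes, 11 rose and 35 did not pass the test, with 0 that fell. The list had a median log2 fold change of 0.55, against 0.03 for all genes, and 45 of 46 members had a positive fold change. Levels averaged over the list lay between 10.16 and 10.24 in the control arrays and between 10.86 and 10.90 in the week 2 arrays, so the groups were separate and each was tight. At an unadjusted p below 0.05, 36 members were higher and 0 lower, against 5.27% and 5.19% of all genes. Mx1, a GTPase gene that blocks viral ribonucleoproteins, had signals of 7.16, 7.26 and 7.30 in control and 8.48, 8.42 and 9.06 at week 2 and lay just outside the threshold (log2 fold change 1.42, SE 0.18, adjusted p = 0.0517). Oasl1 and Dhx58, which tune antiviral signaling, had log2 fold changes of 0.91 and 0.81 and did not pass (adjusted p = 0.120 and 0.158). Monocytes and macrophages also express many of these genes. Their markers had mean levels between 8.46 and 8.61 in control and between 7.94 and 8.48 at week 2. Of 21 such markers, 0 rose and 9 were lower at an unadjusted p below 0.05 (5.19% of all genes). Pan-leukocyte markers were between 9.16 and 9.60 in control and between 8.75 and 9.25 at week 2. Of these, 6 of 12 were lower at that level. The part of leukocytes in the rise of interferon-stimulated genes was not tested.

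Chemokine genes that attract lymphocytes rose at week 2, and further chemokine and adhesion genes did not pass the test. Cxcl10 and Cxcl9 encode ligands of CXCR3, a receptor of activated T and NK cells. Cxcl10 had log2 signals of 8.34, 7.94 and 8.10 in control and 10.39, 10.03 and 10.17 at week 2, and Cxcl9 of 6.43, 6.26 and 6.43 and of 8.16, 7.81 and 8.19 (log2 fold change 1.68, SE 0.13, adjusted p = 0.0207 for Cxcl9). Cxcl9 was near the lower end of the array's signals in control, and a second, dimmer probe set of it had a log2 fold change of 0.26 (adjusted p = 0.403). These 2 were the only risen genes among 31 of the interferon gamma response and antigen presentation, of which 0 fell and 29 did not pass, with a median log2 fold change of 0.24. Among the members that did not pass, Cd274, which encodes PD-L1, had signals of 9.11, 9.04 and 9.28 in control and 10.31, 10.18 and 9.91 at week 2 (log2 fold change 0.99, SE 0.14, adjusted p = 0.0609). Nlrc5 and Ciita, the activators of MHC class I and class II genes, had log2 fold changes of 1.06 and 0.81 (adjusted p = 0.102 and 0.0973), with arrays that did not overlap. Of 23 genes of chemokines and leukocyte adhesion, 0 passed the limma test, 2 were higher at an unadjusted p below 0.05 (5.27% of all genes), and the median was 0.02. Ackr1, the chemokine receptor of venules, had the largest fold change of that list (log2 fold change 0.79, SE 0.25, adjusted p = 0.326). T, B and NK cell markers were at a low level of 7.26 to 7.33 in control and 7.31 to 7.41 at week 2, with 0 of 16 passing.

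**Figure D2:**
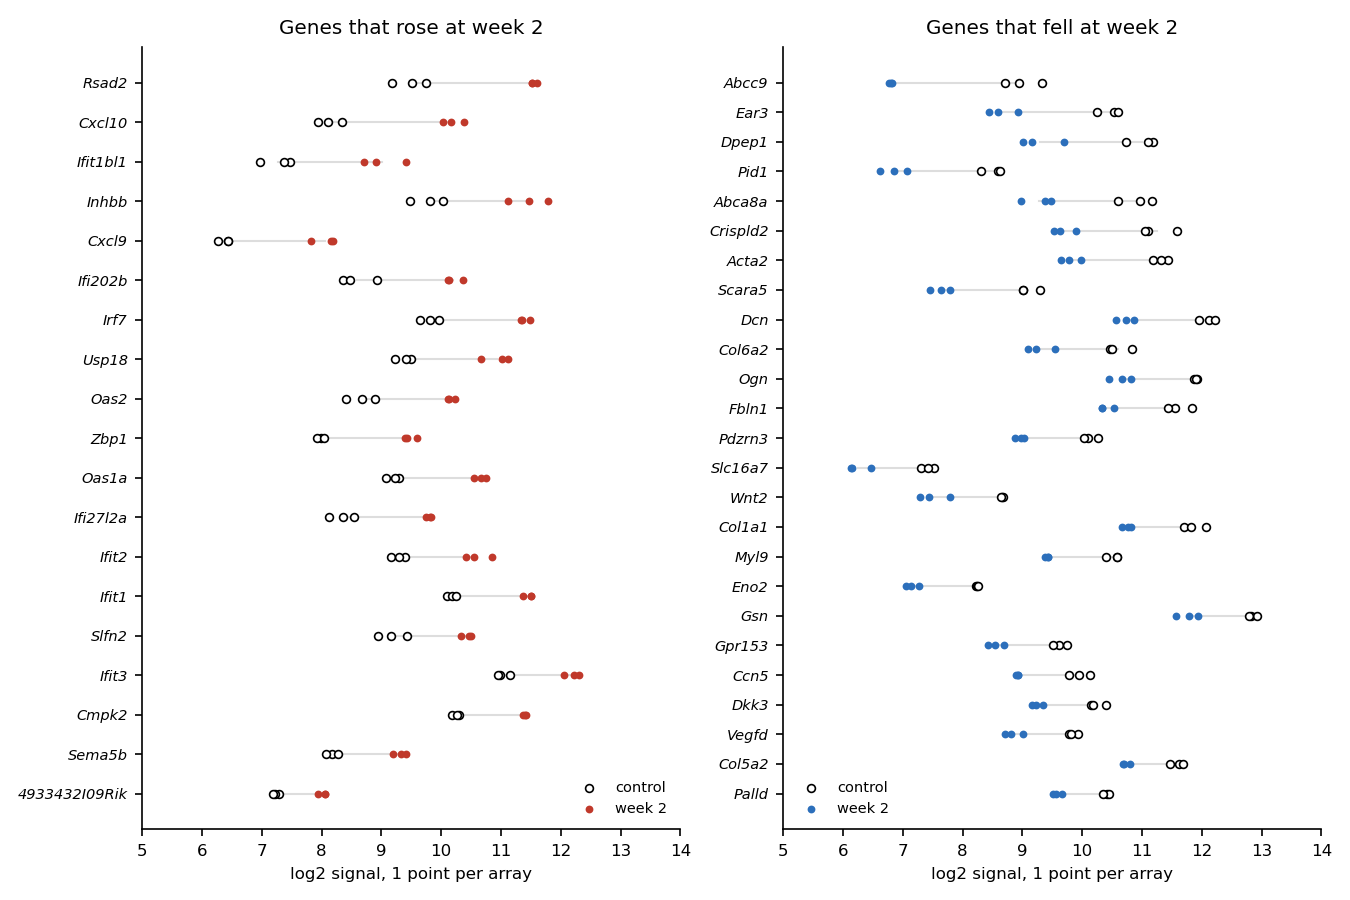
Log2 signals (horizontal axis) of the 19 genes that rose and the 25 that fell at week 2, with 1 open point per control array, 1 filled point per week 2 array and a gray line joining the group means. The groups do not overlap in any of the 44 genes, which were chosen on these same arrays.

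Inhbb was the only member of the activin, BMP and TGF-β list to pass. The gene encodes the inhibin βB chain, which forms activin B as a dimer. Its signals were 9.81, 10.03 and 9.47 in control and 11.12, 11.78 and 11.46 at week 2, a 3.21-fold rise (log2 fold change 1.68, SE 0.21, adjusted p = 0.0460). A second, dimmer probe set had a log2 fold change of 0.97 and did not pass (adjusted p = 0.0807). Of the 29 measured members, 0 fell and 28 did not pass, with a median log2 fold change of -0.08. Inhba, the gene of the sister chain βA, had a log2 fold change of -0.65 with wide spread among control arrays (8.22, 8.42 and 7.04; adjusted p = 0.601). Gdf10, a BMP-like ligand, was lower in every week 2 array and just missed the threshold (log2 fold change -0.84, SE 0.11, adjusted p = 0.0529).

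Sema5b, which encodes a transmembrane semaphorin of axon guidance, and 4933432I09Rik were the risen genes outside interferon-induced families other than Inhbb. Sema5b had signals of 8.18, 8.08 and 8.28 in control and 9.41, 9.33 and 9.19 at week 2 (log2 fold change 1.13, SE 0.11, adjusted p = 0.0242). 4933432I09Rik had signals of 7.29, 7.22 and 7.19 in control and 8.06, 7.94 and 8.05 at week 2, the smallest rise of the 19. Lama1, Scgb3a1 and Tnfrsf11b encode secreted factors that the study followed up in ECs. Lama1, which encodes a laminin chain of basement membranes, had signals of 8.05, 8.27 and 8.19 in control and 8.98, 9.05 and 9.36 at week 2 and did not pass (log2 fold change 0.96, SE 0.13, adjusted p = 0.0609). Scgb3a1, a secretoglobin gene, had signals of 8.59, 9.01 and 8.38 and of 9.65, 9.99 and 9.55 (log2 fold change 1.07, SE 0.19, adjusted p = 0.116). Arrays of both genes were separate between the groups, while those of Tnfrsf11b, the osteoprotegerin gene, overlapped (log2 fold change 0.25, SE 0.17, adjusted p = 0.665).

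Several of the 25 fallen genes encode extracellular matrix or matrix-bound proteins, although 0 of 25 measured genes of the basement membrane and matrix list passed. Dcn encodes decorin, a proteoglycan that binds collagen, and had signals of 12.12, 12.22 and 11.96 in control and 10.87, 10.73 and 10.56 at week 2. Ogn, a related proteoglycan gene, moved from 11.92, 11.87 and 11.91 to 10.66, 10.81 and 10.45 (log2 fold change -1.26, SE 0.12, adjusted p = 0.0234). Both were among the brighter genes of control arrays, and both were lower in every week 2 array. Fbln1, which encodes fibulin 1 of elastic fibers, fell by 1.21 on the log2 scale, from 11.56, 11.84 and 11.43 to 10.53, 10.33 and 10.33. The fibrillar collagen genes Col1a1 and Col5a2 and the microfibrillar collagen gene Col6a2 had log2 fold changes of -1.11, -0.86 and -1.32. Col1a1 had signals of 11.71, 12.07 and 11.82 in control and 10.82, 10.77 and 10.67 at week 2 (SE 0.12, adjusted p = 0.0389), and a second probe set of it fell by 1.23. Crispld2, a secreted protein gene of lung mesenchyme, fell by 1.56, and its 2 further probe sets fell by 1.94 and 1.51. The matricellular gene Ccn5 and the secreted Dickkopf family gene Dkk3 had log2 fold changes of -1.04 and -1.003.

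Fallen genes with a contractile or cytoskeletal product were Acta2, Myl9, Palld and Gsn. Acta2 encodes the actin of smooth muscle and had signals of 11.19, 11.43 and 11.31 in control and 9.77, 9.65 and 9.97 at week 2, 0.351-fold of control. This probe set can cross-hybridize, and the 2 further, dimmer probe sets of Acta2 had log2 fold changes of -0.14 and -0.23 and did not pass (adjusted p = 0.861 and 0.462). Myl9, the regulatory myosin light chain gene whose promoter window holds the CArG box, moved from 10.39, 10.58 and 10.59 to 9.38, 9.42 and 9.43 (log2 fold change -1.11, SE 0.10, adjusted p = 0.0234). Week 2 arrays of Myl9 lay within 0.1 of each other and below all control arrays. Palld, which encodes the actin-associated palladin, and Gsn, which encodes the actin-severing gelsolin, had log2 fold changes of -0.83 and -1.08. Gsn was the brightest fallen gene, at 12.82, 12.93 and 12.79 in control and 11.79, 11.93 and 11.57 at week 2.

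Channels, transporters and signaling genes made up most of the rest. Abcc9 encodes the sulfonylurea receptor subunit of potassium channels in pericytes and had the largest fitted fall, from 9.33, 8.94 and 8.71 to 6.82, 6.80 and 6.77 (SE 0.16, adjusted p = 0.0207). The week 2 arrays were almost equal and lay near the lower end of the array's signals, so the size of the fall is uncertain. Of its 2 further probe sets, one fell by 1.15 and the other had a log2 fold change of -0.66 and did not pass (adjusted p = 0.140). Scara5, a ferritin receptor gene, moved from 9.007, 9.289 and 9.003 to 7.80, 7.64 and 7.45 (log2 fold change -1.47, SE 0.14, adjusted p = 0.0234). The lipid transporter gene Abca8a and the monocarboxylate transporter gene Slc16a7 had log2 fold changes of -1.63 and -1.16. Slc16a7 went from 7.52, 7.30 and 7.42 to 6.14, 6.46 and 6.15, near the lower end of the array's signals. Among signaling genes, Wnt2, a WNT ligand of lung mesenchyme, had signals of 8.65, 8.68 and 8.64 in control and 7.43, 7.79 and 7.29 at week 2 (log2 fold change -1.15, SE 0.14, adjusted p = 0.0460). Vegfd, the lymphangiogenic VEGF gene, fell by 1.00 on the log2 scale, from 9.79, 9.93 and 9.81 to 9.01, 8.82 and 8.71. Dpep1, a membrane dipeptidase gene that also marks lung fibroblasts, and Pid1, an adaptor gene of insulin signaling, fell by 1.72 and 1.67. Pid1 had a mean of 6.84 at week 2, near the lower end of the array's signals. Its further, dimmer probe sets had log2 fold changes of 0.12 and 0.44 (adjusted p = 0.739 and 0.601). Eno2 (an enolase gene), Pdzrn3 (a ubiquitin ligase gene) and Gpr153 (an orphan receptor gene) had log2 fold changes of -1.09, -1.17 and -1.08. With all 4 groups in one fit, Eno2 did not pass (adjusted p = 0.494), and its week 3 arrays were at 6.41, 6.71 and 8.67. Ear3, of the eosinophil-associated ribonucleases, fell by 1.81, from 10.54, 10.61 and 10.24 to 8.44, 8.93 and 8.59. Its probe set can detect near-identical ribonuclease genes, so the member of the family that it measures is uncertain.

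Markers of fibroblasts and mural cells, which the sort removes through CD140a and CD140b, were present in control arrays and lower at week 2. Of 25 fibroblast markers, 5 fell (Dpep1, Dcn, Col6a2, Col1a1 and Gsn), 0 rose and 20 did not pass, with a median log2 fold change of -1.05, against 0.03 for all genes. At an unadjusted p below 0.05, 23 of them were lower (5.19% of all genes), and the list's mean level was 11.19, 11.23 and 11.06 in control and 10.22, 10.35 and 9.91 at week 2. Of 21 mural markers, 2 fell (Abcc9 and Acta2), 0 rose and 19 did not pass, and the list's mean level was between 9.47 and 9.54 in control and at most 9.005 at week 2, with the lowest array at 8.70. Both lists were lower in every week 2 array, and in both the lowest array was week 2 replicate 3. Pdgfra, which encodes the CD140a of the sort, had a high signal of 11.93, 11.99 and 11.82 in control and of 10.36, 10.72 and 9.87 at week 2 (log2 fold change -1.60, SE 0.21, adjusted p = 0.0535), and Pdgfrb, which encodes CD140b, had one of 10.47, 10.19 and 10.13 and of 9.35, 9.49 and 8.60 (adjusted p = 0.168). In sorted samples, fewer cells of a type and less RNA per cell cannot be told apart, and the part of fibroblasts and mural cells in the fall of the other 18 genes was not tested.

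**Figure D3:**
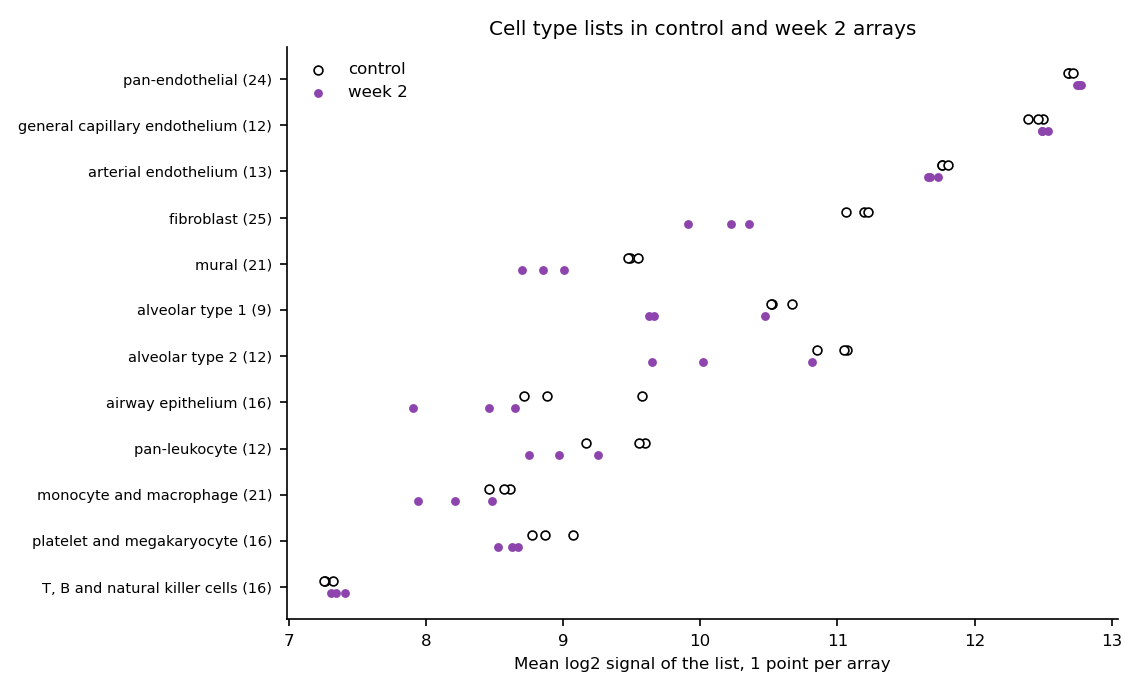
Mean log2 signal (horizontal axis) of 12 cell type lists, with the number of measured markers in brackets, in each control array (open) and each week 2 array (filled). Fibroblast, mural, alveolar type 1, alveolar type 2, airway, platelet and arterial levels are lower in every week 2 array than in every control array. Pan-endothelial levels lie between 12.68 and 12.71 in control and between 12.74 and 12.77 at week 2.

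Of the alveolar and airway epithelial markers, 0 passed the limma test, and levels varied between the week 2 arrays. At an unadjusted p below 0.05, 5.19% of all genes were lower. At that level, 9 of 12 alveolar type 2 markers and 6 of 9 alveolar type 1 markers were lower. The alveolar type 2 list had a median fold change of -0.86 on the log2 scale and a mean level of 11.07, 11.05 and 10.85 in control and of 10.02, 10.81 and 9.65 at week 2. Week 2 replicate 2 was thus close to control in this list and in that of alveolar type 1 cells (9.66, 10.47 and 9.62 at week 2, and 10.52 to 10.67 in control). Scgb1a1, the club cell secretoglobin gene, had signals of 11.76, 12.91 and 12.41 in control and of 11.76, 10.25 and 7.90 at week 2 (log2 fold change -2.39, SE 0.88, adjusted p = 0.399), so the highest week 2 array lay at the lowest control array. Of 16 airway markers, 6 were lower and 2 higher at an unadjusted p below 0.05 (5.19% and 5.27% of all genes). Their median log2 fold change was -0.20. Scgb3a1, named above among the factors followed up in ECs, is also on this list and had its highest log2 fold change, 1.07. Mean levels of the airway list lay between 8.72 and 9.57 in control and between 7.91 and 8.65 at week 2. Epcam itself was dim in both groups, at 7.43 to 7.49 in control and 7.20 to 7.46 at week 2. Lyz2 and Mpeg1, of macrophages, had log2 fold changes of -1.13 and -0.94 (adjusted p = 0.228 and 0.0593), and Ptprc, which encodes CD45, varied within both groups (9.46, 8.86 and 8.21 in control, 8.50, 9.07 and 7.72 at week 2). Platelet genes Ppbp and Pf4 had log2 fold changes of -0.73 and -0.64 and did not pass. Of the 22 cell type lists, 2 held a gene that passed the test.

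ECs of the lung fall into vascular beds, and 0 genes of their marker lists passed the limma test. Aerocytes, the thin capillary ECs of gas exchange, had a median log2 fold change of 0.02 over 9 markers, and general capillary ECs, which renew the capillary bed, had one of 0.00 over 12. The arterial list had a median of 0.06, with 3 of 13 markers lower and 0 higher at an unadjusted p below 0.05 (5.19% and 5.27% of all genes), and its mean level was between 11.76 and 11.80 in control and between 11.66 and 11.74 at week 2. Mgp and Ltbp4, which encode matrix-bound proteins, had the largest changes of that list (log2 fold changes of -0.60 and -0.57, adjusted p = 0.165 and 0.109). The lymphatic list had a median of -0.33, with 4 of 9 markers lower at that level and mean levels of 10.37 to 10.69 in control and 10.14 to 10.34 at week 2, so the groups were separate. The venous list had a median of 0.08 with 3 of 14 markers higher and 2 lower. Ackr1, Col15a1 and Vwa1 were the higher ones (log2 fold changes of 0.79, 0.58 and 0.56, adjusted p = 0.326, 0.110 and 0.319), and Nr2f2, the venous fate regulator, was among the lower ones (log2 fold change -0.40, adjusted p = 0.387). The endothelial lectin gene Clec14a gave conflicting signals. Its brighter probe set had 12.95, 12.94 and 12.97 in control and 12.83, 12.87 and 12.94 at week 2 (log2 fold change of -0.07, adjusted p = 0.835), while a second one fell by 0.99 (adjusted p = 0.0401).

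Programs of proliferation and vessel sprouting had no gene past the threshold at week 2. Of 39 mitosis genes and 31 of DNA replication, 0 passed the limma test, with 3 and 1 higher at an unadjusted p below 0.05 (5.27% of all genes) and medians of -0.02 and 0.05. Melk, a mitotic kinase gene, had the largest fold change of the mitosis list (log2 fold change 0.98, SE 0.26, adjusted p = 0.251), and mitosis levels in control already ranged from 7.89 to 8.56 between arrays. Of 32 tip cell and angiogenesis genes, 0 passed, 4 were higher and 5 lower at an unadjusted p below 0.05 (5.27% and 5.19% of all genes), and the median was 0.03. Adm, the vasodilator adrenomedullin gene, was lower in every week 2 array and did not pass (log2 fold change -0.90, SE 0.12, adjusted p = 0.0611). Genes of the TNF and NF-κB response, hypoxia and glycolysis, shear stress, complement, the circadian clock, the glucocorticoid response and the immediate-early response to dissociation had medians between -0.03 and 0.11, with 0 genes past the threshold in each. Basement membrane and matrix genes had a median of -0.12, fatty acid genes one of -0.14, and oxidative stress genes one of -0.10, each with 0 genes past the threshold. At an unadjusted p below 0.05, 9 of 25, 4 of 18 and 8 of 24 of these genes were lower, and 4, 0 and 0 were higher (5.19% and 5.27% of all genes). G0s2, an inhibitor of lipolysis, and Aldh1a1, an aldehyde dehydrogenase gene, did not pass (log2 fold changes of -1.16 and -1.32, adjusted p = 0.0723 and 0.0782). No gene with a change smaller than 0.78 on the log2 scale passed in this comparison.

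**Figure D4:**
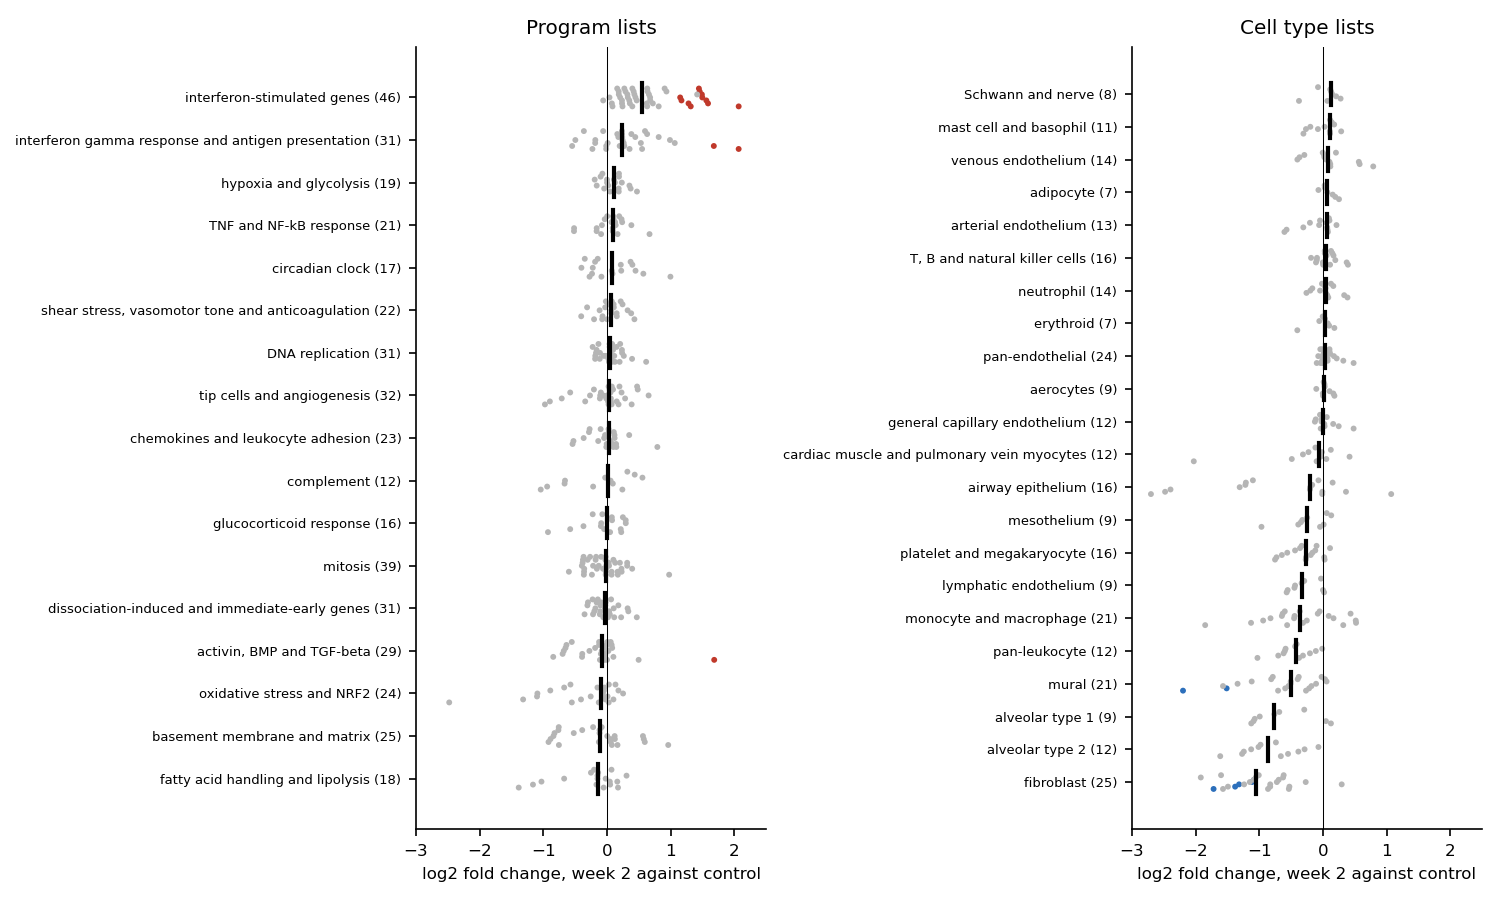
The log2 fold change at week 2 against control (horizontal axis) of each gene of 17 program lists and 22 cell type lists, with measured members in brackets. Red points rose, blue points fell, gray points did not pass and black bars are list medians, which run from 0.55 for interferon-stimulated genes to -1.05 for fibroblast markers.

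The risen and fallen genes were followed across the other weeks, where each comparison with control uses the same control arrays. The genes were chosen on the week 2 arrays, which also enter the comparisons with weeks 1 and 3, so these values are a description. Of the 19 risen genes, 8 were higher at week 3 than at week 2 and 0 lower at an adjusted p below 0.05 from limma, against 1.35% of all genes higher and 0.748% lower in that comparison. Zbp1 had log2 fold changes against control of 1.16, 1.49 and 2.40 at weeks 1, 2 and 3, and Ifit2 of 1.05, 1.32 and 2.22. Sema5b and 4933432I09Rik were the exceptions in sign, with log2 fold changes of 0.02, 1.13 and 0.70 and of 0.30, 0.78 and 0.33. Of the 25 fallen genes, 5 were higher at week 3 than at week 2 (Ear3, Col1a1, Acta2, Col5a2 and Pdzrn3) and 1, Gsn, was lower. Col1a1 had log2 fold changes of -0.99, -1.11 and 0.18, with week 3 arrays at 12.26, 11.78 and 12.09, and Gsn of -0.95, -1.08 and -2.05.

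Between week 1 and week 2, limma called 0 genes, with 633 higher (3.48%) and 559 lower (3.07%) at an unadjusted p below 0.05. Ifit1bl1 was at 7.15, 7.29 and 7.84 at week 1, Sema5b at 7.81, 8.45 and 8.34, and Scara5 at 9.47, 8.87 and 8.95, so that in each of these genes week 1 overlapped the control arrays and not those of week 2. Their differences between weeks 2 and 1 were 1.58, 1.11 and -1.47 on the log2 scale (adjusted p = 0.246, 0.271 and 0.220). Oas1a and Ifi27l2a had already reached log2 fold changes of 1.56 and 1.59 against control at week 1.

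**Figure D5:**
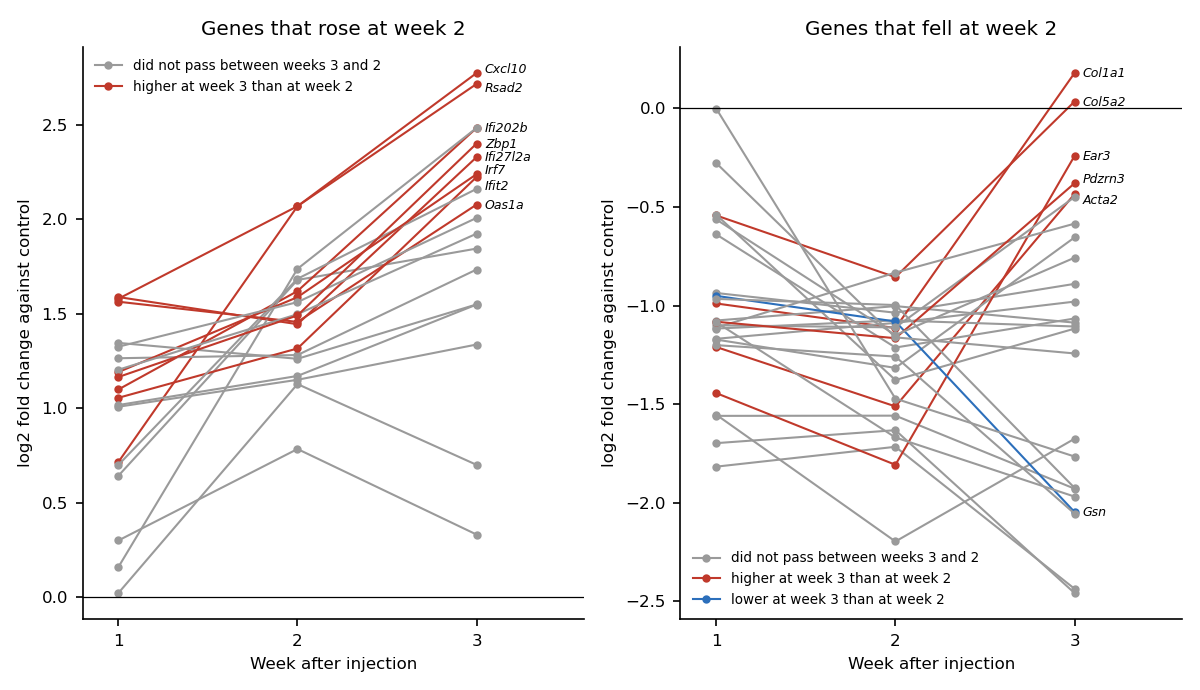
The log2 fold change against control (vertical axis) at weeks 1, 2 and 3 (horizontal axis) of the 19 genes that rose and the 25 that fell at week 2, with 1 line per gene. Red lines are genes higher and the blue line a gene lower at week 3 than at week 2 at an adjusted p below 0.05, and all 3 weeks share the control arrays.

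The threshold divided genes with like values. Just inside it lay 4933432I09Rik, Ifit1bl1, Inhbb, Wnt2 and Col5a2 (adjusted p = 0.0460 for all), and just outside it Mx1, Myh10, Gdf10, Hsd11b1 and Bmper (adjusted p from 0.0517 to 0.0534). Myh10 encodes a nonmuscle myosin, Hsd11b1 the enzyme that regenerates glucocorticoids and Bmper a secreted BMP modulator, with log2 fold changes of -0.76, -1.32 and -1.80. Of the 44 called genes, 23 have further probe sets with a single symbol, 36 in all, of which 29 had the same direction and 8 were called themselves. Further probe sets of Dcn, Scara5 and Pdzrn3 were dim and had log2 fold changes of -0.03, 0.03 and -0.12, and the second one of Sema5b had one of 0.70 (adjusted p = 0.110). A further 10 genes had a called probe set that was not the one read as the gene. Among these, Trim30a, an interferon-induced gene, rose by 0.88, and Plxdc2, Sorl1 and Celf2 fell by 1.47, 1.39 and 1.07 in that probe set, while the brighter ones had log2 fold changes of 0.72, -1.34, -1.07 and -1.12 and did not pass (adjusted p from 0.0755 to 0.258). A probe set shared by Clca3a1 and Clca3a2, chloride channel regulator genes, rose as well (log2 fold change 1.56, SE 0.15, adjusted p = 0.0242).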

How the data were processed

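Gene expression of sorted lung ECs was measured on Affymetrix Mouse Genome 430 v.2.0 arrays from 500 pg of total RNA. The deposited values are log2 signals, 1 for each probe set on each array. The authors background-corrected, quantile-normalized and summarized them by robust multiarray average in Chipster, which removes any shift common to a whole array, and no filter is stated. The values were used as deposited. From 45101 probe sets, 64 array controls were set aside. Symbols came from the annotation of the array platform, which can be old. Single symbols were carried by 34945 probe sets, several by 932 and none by 9160, and a gene with more than 1 probe set (9010 of 18193) was read from the brightest over the 12 arrays.

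The 3 week 2 arrays and 3 control arrays were fitted alone by the linear models of limma 3.58.1 (R 4.3.3), after the 2-group empirical Bayes test in the study's methods, with Benjamini–Hochberg correction over 45037 probe sets. Week 2 was compared with week 1, and week 3 with week 2, in the same way. Lists and promoters were handled with pandas 2.3.3, numpy 2.4.6 and scipy 1.17.1 under Python 3.11.15, and plots were drawn with matplotlib 3.10.9. The test and the motif search were tested on simulated data. Of 736 symbols on 39 gene lists, 688 genes were matched.

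The genes and lists were chosen with earlier results of these data known. Named genes are all called genes, called members and up to 4 further members of each list with the largest absolute fold change, genes of the sort, 4 genes that the study follows up, and the 5 genes on each side of the threshold. The probe sets of Clec14a, Trim30a, Plxdc2, Sorl1, Celf2 and Clca3a1 were named after their values were seen. The main fits did not pair arrays by replicate number. Deviations of same-numbered arrays correlated by -0.02, 0.00 and 0.06. With so few arrays per group, these values cannot decide whether the numbers pair the arrays. Alternatives covered the samples in the fit, the replicate block, left-out arrays, normalization, filters, probe set choice, variance model and array weights. The number of arrays limits the precision.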

Additional observations from a re-analysis of the deposited data

Results flagged for a closer look

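For 14 of the 44 genes that rose or fell at week 2, the level differed between week 3 and week 2 (limma, adjusted p below 0.05). Of all genes, 1.35% were higher and 0.748% lower at week 3 at that threshold. The change of the 14 against the same control arrays thus differed between these weeks. Of the fallen genes, 5 were higher at week 3, with log2 differences of week 3 minus week 2 of 1.57 for Ear3, 1.29 for Col1a1, 1.08 for Acta2, 0.89 for Col5a2 and 0.79 for Pdzrn3. Gsn, an actin-severing gene on the fibroblast list, went the opposite way, with a difference of -0.97. Interferon-induced genes were higher at week 3 as well, by 0.91 for Zbp1, 0.91 for Ifit2, 0.88 for Ifi27l2a, 0.86 for Ifi202b, 0.71 for Cxcl10, 0.65 for Irf7, 0.65 for Rsad2 and 0.62 for Oas1a. The genes were chosen on the week 2 arrays, which also enter this comparison. In each of the 8, the week 3 mean was the higher of the 2 in a gene that already lay above control at week 2.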

How the results depend on the processing

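Direction was kept by each of the 44 called genes in every alternative in which it was tested. Of 656 values in all, 346 stayed past the threshold, 310 did not and 0 reversed. The 44 were chosen on these same arrays, so the kept directions are a description and add no support. Of the 310, 247 came from the 264 values with an array left out. The counts moved more, and the cause was not tested. Of 585 list medians under the alternatives, 541 moved by less than the spread between arrays and 44 by more.

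With the replicate block, 0 genes passed at week 2 against control (0 interferon-stimulated genes and 0 fibroblast markers among them). All 44, which were chosen on these same arrays, had an unadjusted p below 0.05 in that fit, and 0 genes passed between weeks 3 and 2. The correlations of same-numbered arrays neither bear out nor exclude this block. Leaving out 1 array gave 0 to 26 genes for week 2 against control (0 to 9 rose, 0 to 17 fell), 0 to 7 interferon-stimulated genes and 0 to 4 fibroblast markers, and 0 to 137 genes for week 3 against week 2. The 26 came without week 2 replicate 2 and shared 17 genes with the 44. With all 4 groups in one fit, 106 genes were called (36 rose, 70 fell), with 15 fibroblast markers, and for week 2 against week 1 and week 3 against week 2 the counts were 1 and 605. Probe sets above the median in at least 3 arrays gave 90 genes (66 fell, 11 fibroblast markers) and 580 for week 3 against week 2. A trended and robust variance gave 115 genes (33 rose, 82 fell, 18 fibroblast markers), with 5 for week 2 against week 1 and 776 for week 3 against week 2. The mean of the probe sets of a gene gave 134 genes (40 rose, 94 fell, 13 fibroblast markers). Quantile normalization again and centring gave 44 and 44 genes. The deposited values were already quantile-normalized, so these alternatives could change little. Array weights gave 41 genes, and leaving out probe sets open to cross-hybridization gave 34, with Acta2 read from a dimmer probe set at -0.23 (adjusted p = 0.477).

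With 3 arrays per group, the median standard error was 0.13, and no gene changed by less than 0.78 on the log2 scale passed.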
